A study of Mus musculus with 6 samples.

Results

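The genes described here encode mitochondrial ribosomal proteins in the mouse heart. Members were taken as the rows of the count table whose Ensembl identifier belongs to a protein-coding mouse gene with a symbol beginning with Mrpl or Mrps and then a digit, and there were 78 of them among 49315 rows. RNA-seq was carried out on 6 hearts of the C57BL/6 strain. The labels WT1, WT2 and WT3 stand for the 3 wild-type hearts, and KO1, KO2 and KO3 for the 3 hearts with a CRISPR-Cas9 knockout of Arrdc4, which encodes an arrestin domain protein. No source used here gives age, sex, litter or the founder line of the knockout. Nothing states that the samples of a group came from separate litters or were prepared separately, so the p-values measure only the spread between these samples. The comparison asks how loss of Arrdc4 bears on expression of these genes in the heart.

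Mitochondria carry their own ribosome, the mitoribosome, which translates the few messenger RNAs of the mitochondrial genome into core subunits of the respiratory chain and of ATP synthase. Its ribosomal RNAs come from the mitochondrial genome, whereas all of its proteins are encoded in the nucleus, made in the cytosol and imported. The Mrpl genes mostly encode proteins of the large subunit, which joins amino acids and holds the exit tunnel, and the Mrps genes mostly encode proteins of the small subunit, which binds and decodes the messenger RNA. The heart relies heavily on oxidative phosphorylation, and inherited defects of several of these proteins cause cardiomyopathy in people.

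By the current structural naming, 51 of the 78 genes encode large subunit proteins and 26 encode small subunit proteins. Mrps30 and Mrps18a, although named for the small subunit, were counted in the large subunit, where their proteins are found. Mrps36, the remaining gene, encodes a protein now placed in the alpha-ketoglutarate dehydrogenase complex and was counted in neither. Of the 77 subunit genes, 45 were counted as homologs of bacterial ribosomal proteins and 32 as mitochondria-specific. Mrps18a and Mrps18b, although paralogs of bacterial S18, were counted among the mitochondria-specific genes. The 78 genes lie on 17 chromosomes, with 11 on chromosome 11. Their principal transcripts were short, with a median of 1302 bases (418 to 7300) and a median of 5 exons (2 to 12), where the median length over all tested genes was 2911 bases.

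The start regions of the members were compared by sequence. Promoters from RefSeq on GRCm38.p6, each from 250 bases before to 50 bases after a start site, matched 69 of the 78 genes and gave 75 promoters. Mrpl38, Mrpl4, Mrpl54, Mrpl13, Mrps34, Mrps28, Mrps35, Mrpl15 and Mrpl19 had no match. Motifs were searched on both strands for factors known to act on genes of mitochondrial proteins. The letters CCGGAAG, bound by ETS factors such as GABP, occurred in 34.7% of the members' promoters and in 16.2% of 13747 promoters of tested genes. For AAGATGGC, bound by YY1, the shares were 16.0% and 4.10%, and for GCGCA and GCGC with any 1 base between them, bound by NRF1, they were 17.3% and 9.25%. The TATA box letters TATAAA gave 6.67% and 7.55%. At least 1 of the ETS, YY1 and NRF1 motifs was found in 57.3% of the members' promoters, against 26.3% in those of tested genes and 14.7% of all 32851 promoters in the table. A match is a run of letters and was not tested as a binding site.

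The following windows run from 150 bases before the start to 20 after it, all on the plus strand of GRCm38.p6, with motif matches in capitals. They show how the start regions differ among members that are described below. Mrpl12 at chr11:120484487-120484656 holds an NRF1 match, Mrps26 at chr2:130563607-130563776 holds NRF1 and ETS matches, and Mrps18a at chr17:46110854-46111023 holds ETS and YY1 matches. Mrpl53 at chr6:83108958-83109127 holds ETS matches. Mrps2 at chr2:28467916-28468085 and Mrps5 at chr2:127587276-127587445, shown because their genotype groups did not overlap, hold no match to any of the motifs. Of the 69 matched genes, 26 held none of the ETS, YY1 and NRF1 motifs from 250 bases before to 50 after a start. A link between motifs and genotype was not tested.
Mrpl12: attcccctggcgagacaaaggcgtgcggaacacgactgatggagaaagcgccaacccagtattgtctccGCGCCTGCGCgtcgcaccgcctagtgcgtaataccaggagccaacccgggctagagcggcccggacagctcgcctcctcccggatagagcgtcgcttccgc
Mrps26: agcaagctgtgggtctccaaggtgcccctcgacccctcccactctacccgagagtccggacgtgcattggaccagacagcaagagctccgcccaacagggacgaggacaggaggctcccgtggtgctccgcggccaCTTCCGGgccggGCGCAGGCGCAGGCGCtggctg
Mrps18a: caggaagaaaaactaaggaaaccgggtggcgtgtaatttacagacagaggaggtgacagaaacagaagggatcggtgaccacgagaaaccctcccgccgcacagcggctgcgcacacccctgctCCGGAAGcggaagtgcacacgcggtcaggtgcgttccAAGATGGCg
Mrpl53: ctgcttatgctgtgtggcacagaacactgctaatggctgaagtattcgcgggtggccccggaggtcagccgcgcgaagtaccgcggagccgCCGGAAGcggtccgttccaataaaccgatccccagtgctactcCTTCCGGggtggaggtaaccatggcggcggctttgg
Mrps2: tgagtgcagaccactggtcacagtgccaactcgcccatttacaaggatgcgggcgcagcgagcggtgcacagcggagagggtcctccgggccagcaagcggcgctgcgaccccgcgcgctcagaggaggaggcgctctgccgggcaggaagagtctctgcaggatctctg
Mrps5: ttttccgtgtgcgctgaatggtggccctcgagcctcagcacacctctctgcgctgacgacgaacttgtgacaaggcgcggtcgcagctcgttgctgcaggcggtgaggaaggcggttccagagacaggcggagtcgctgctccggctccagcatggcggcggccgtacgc

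Library totals ran from 29974501 counts in WT1 to 41036626 in KO1. Arrdc4 had 349, 307 and 281 counts in the wild-type hearts and 5, 1 and 2 in the knockout hearts, and it was the single gene of the 14508 tested that passed the threshold (log2 fold change -6.93, adjusted p = 0.00226, edgeR quasi-likelihood test). The marker genes of cardiomyocytes summed to between 71060 and 82801 CPM in the 6 hearts, where CPM is the count scaled to a common library total. The hearts WT3 and KO2 stood apart from the other 4 across all genes. Their deviations from the group means correlated with each other across genes (r = 0.68), and the 1250 genes with a principal transcript under 1 kb had median deviations of 0.41 and 0.42 log2 units there, against -0.27 to -0.07 in the other hearts. For this reason, results on the 78 genes are given with and without WT3 and KO2. In bulk tissue, fewer cells of a type and less RNA per cell cannot be told apart.

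Every one of the 78 genes was expressed and passed the filter on low counts. Levels between genes are compared as FPKM, which is CPM per kilobase of the principal transcript. The median gene had a mean of 35.3 FPKM over the 6 hearts, with quartiles at 18.5 and 64.2 FPKM, which differ 3.46-fold. The highest by this length was Mrpl42, which encodes a mitochondria-specific large subunit protein, at 436 ± 129 FPKM (SD, n = 6 hearts of both genotypes). Below it came Mrps21 at 178 ± 50.9, Mrpl30 at 167 ± 49.1, Mrpl12 at 141 ± 40.8, Mrpl33 at 135 ± 55.9 and Mrps23 at 129 ± 33.4 FPKM, all n = 6. Mrpl42 led in all 6 hearts, as did Mrps21 over Mrpl30 and Mrpl30 over Mrpl12, whereas Mrpl12, Mrpl33 and Mrps23 changed places between hearts.

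The lowest gene was Mrpl53, another mitochondria-specific large subunit gene, at 3.13 ± 1.78 FPKM (SD, n = 6). Next came Mrps25 at 5.80 ± 0.989, Mrpl17 at 5.92 ± 1.601, Mrpl19 at 6.61 ± 1.33, Mrps5 at 7.51 ± 0.222 and Mrps26 at 7.83 ± 1.53 FPKM. Mrpl53 lay below Mrps25 in all 6 hearts. Of the 77 pairs of neighbours in this order, 9 kept their order in every heart and 68 did not, so most neighbours differed by less than their spread. Large subunit genes had a median of 36.7 FPKM and small subunit genes 26.1, with wide overlap. The ends of the order also rest on the choice of transcript: with the length of all merged exons in place of the principal transcript, 3 of the 6 highest and 4 of the 6 lowest genes stayed among them. Mrpl42 then had 78.8 FPKM and was 8th, Mrpl33 had 8.81 FPKM and was 64th, and Mrpl12 was the highest at 121 FPKM.

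**Figure D1:**
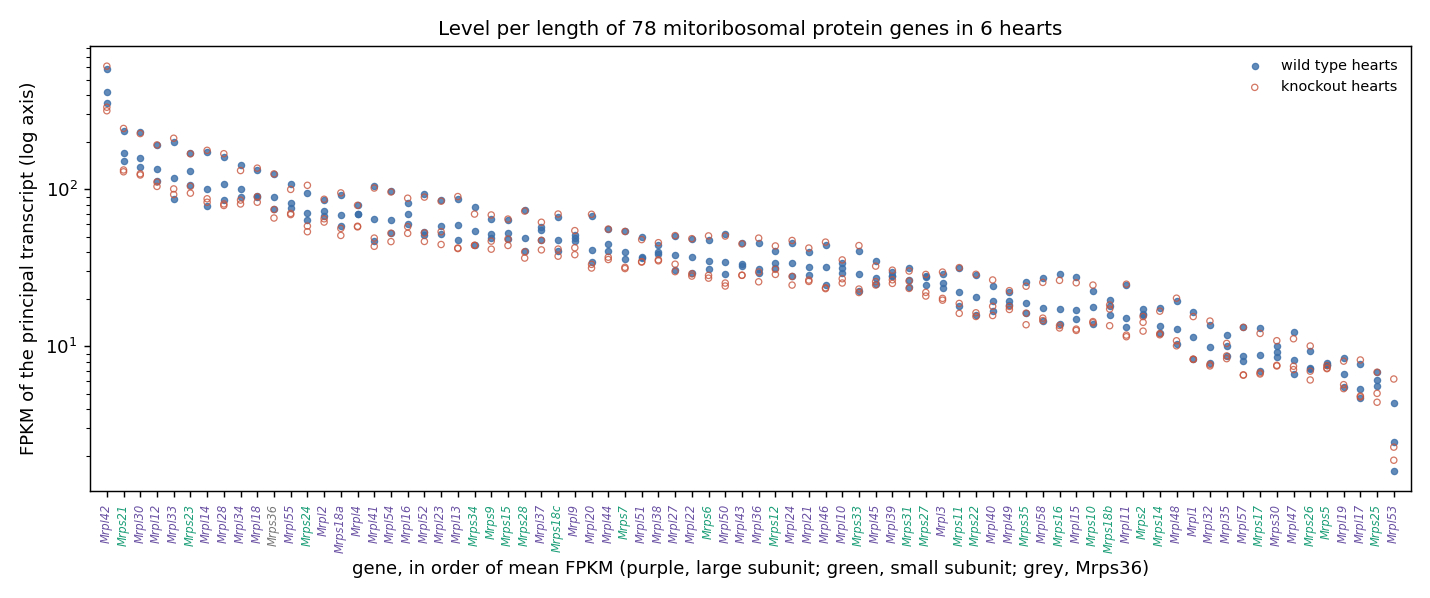
Level per length of each of the 78 genes (FPKM of the principal transcript, log axis), in order of the mean, with 1 point per heart: filled blue for wild type, open red for knockout. Mrpl42 stands above the rest with a mean of 436 FPKM and Mrpl53 below them with 3.13, and the genotypes overlap for all genes but Mrps2 and Mrps5.

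Counting was uncertain for some of these genes. Exons of 33 of the 78 overlapped exons of another gene, and for 7 the overlap was more than 25% of the exonic bases. For Mrpl53 it was 88.0%, shared on the same strand with Gm42688, and how reads were split between them was not tested. Mrps25 shared 69.8% with Nr2c2 on the opposite strand, and Mrps34 shared 63.4% with Mapk8ip3 on the opposite strand and 37.0% with Nme3 on the same strand. No source used here says whether counting used strand. The 5 pseudogene rows with Mrpl or Mrps symbols held at most 1.30% of the counts of their parent gene.

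No mitoribosomal protein gene passed the threshold in knockout against wild type. The background was equally empty, with 0.00689% of all tested genes called. At an unadjusted p under 0.05, the edgeR test listed 0 of the 78 genes, against 1.23% of all genes. DESeq2 and limma-voom likewise called 0 of the 78 and listed 0 at an unadjusted p under 0.05. The estimates were small and lay on one side: 75 of 78 log2 fold changes were below 0, where 47.7% of all genes were, and the median was -0.11 against 0.01 for all genes. They ran from -0.23 in Mrpl15 to 0.29 in Mrpl53. The 26 small subunit genes were all below 0 with a median of -0.11, and 48 of the 51 large subunit genes were below 0 with a median of -0.10. Homologs of bacterial proteins and mitochondria-specific proteins had medians of -0.11 and -0.10. Other gene groups lay on the same side. Below 0 were also 36 of 37 nuclear genes of respiratory complex I and 75 of 84 tested genes of cytosolic ribosomal proteins.

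The intervals of the 78 genes limit how large a change could be. The 95% interval excluded a 2-fold change in either direction for 73 of the 78 genes (93.6%, against 76.5% of all tested genes), and the exceptions were Mrpl15, Mrpl50, Mrpl53, Mrps16 and Mrpl41. It excluded a 1.5-fold change for 22 of them (28.2%), where 39.7% of all tested genes did. The median standard error was 0.27 on the log2 scale, more than the median fold change itself.

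**Figure D2:**
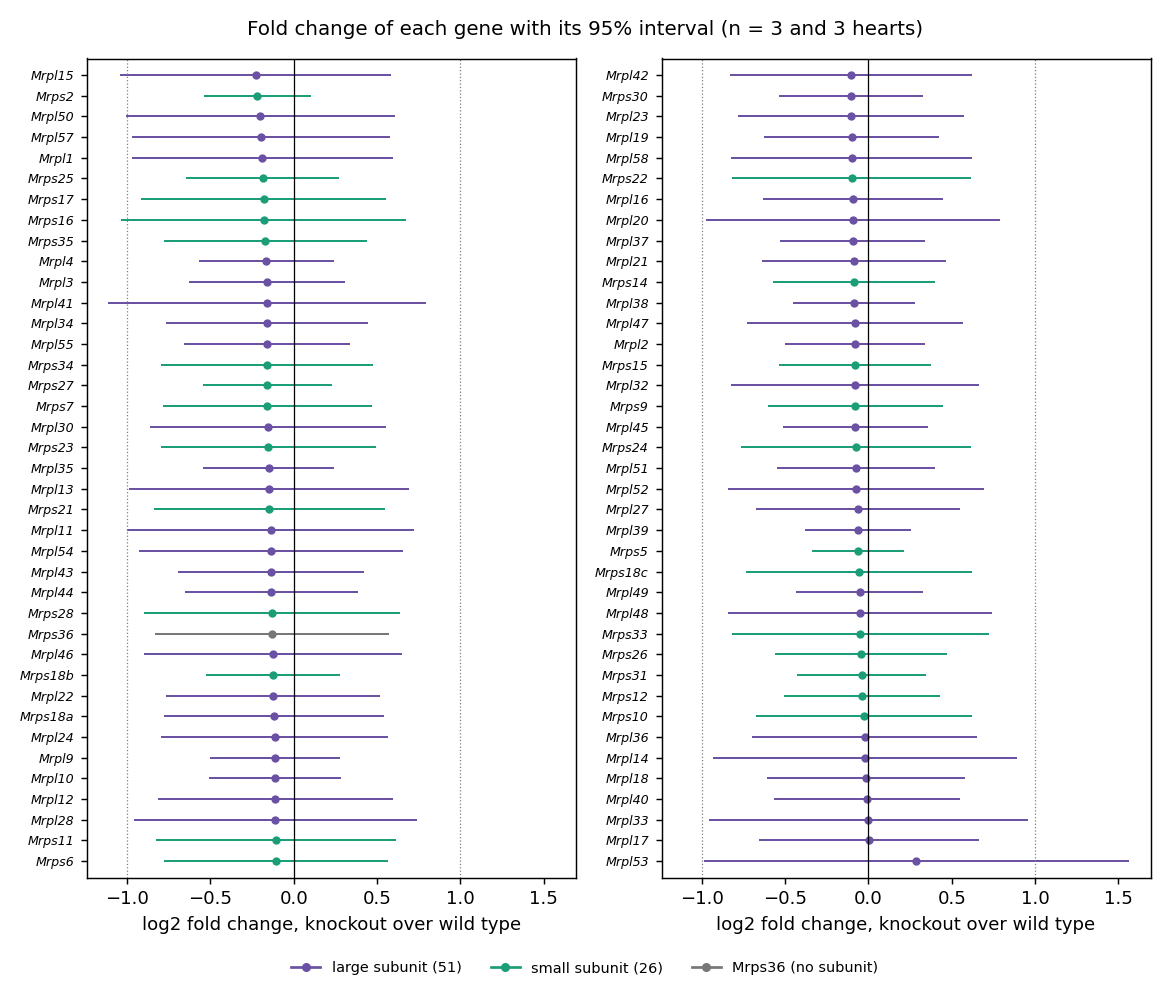
Log2 fold change of each of the 78 genes, knockout over wild type, with its 95% interval from the edgeR fit, for 3 hearts against 3; dotted lines mark a 2-fold change. All 78 intervals cross 0, and 75 of the 78 estimates lie below it.

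Hearts of the same genotype differed widely from each other. Summed over the 78 genes, the level was 4542, 3977 and 6119 CPM in WT1, WT2 and WT3, and 3647, 6158 and 3746 CPM in KO1, KO2 and KO3. The highest wild-type heart and the highest knockout heart thus lay close together, well above the other 4, and the groups overlapped (wild type 4879 ± 1110 CPM, knockout 4517 ± 1422 CPM, each mean ± SD with n = 3). As a median over genes, log2 CPM deviated from each gene's mean by -0.01, -0.22 and 0.43 in WT1, WT2 and WT3 and by -0.32, 0.44 and -0.30 in KO1, KO2 and KO3. All 78 genes were above their own mean in WT3 and in KO2. For 75 of the 78, WT3 and KO2 were the 2 highest hearts, which was so for 29.4% of all tested genes. The exceptions were Mrps2, Mrps5 and Mrps27.

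**Figure D3:**
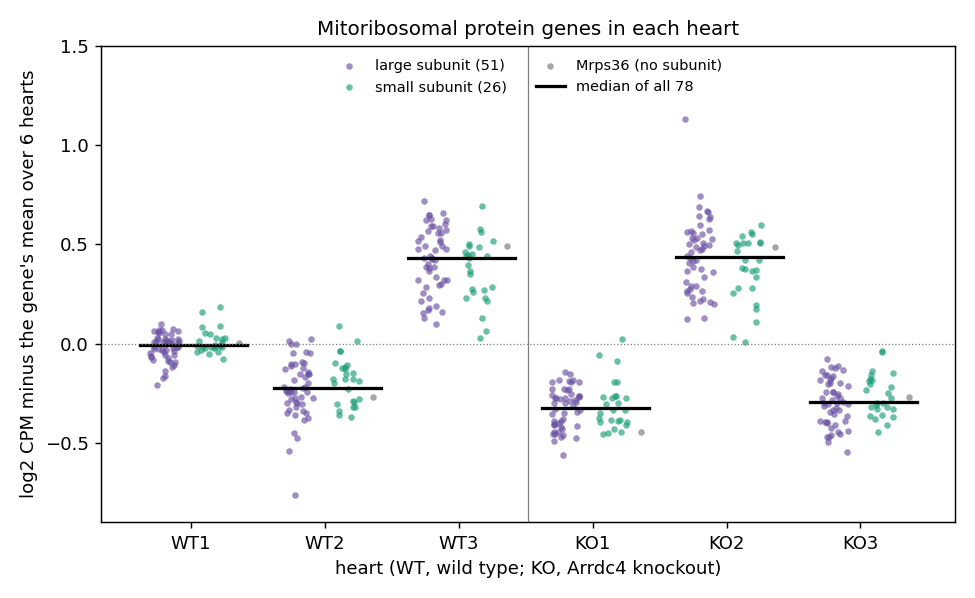
Deviation of each of the 78 genes from its own mean over the 6 hearts (log2 CPM), 1 point per gene, by heart and subunit, with the median of all 78 as a bar. The bars lie at 0.43 in WT3 and 0.44 in KO2 and between -0.32 and -0.01 in the other 4 hearts, and the points of both subunits overlap in every heart.

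At the other end, the lowest heart was KO1 for 47 genes, KO3 for 24 and WT2 for 7. In both subunits WT3 and KO2 were the highest hearts by the median. Large subunit genes had medians of 0.43 in WT3, 0.46 in KO2, -0.30 in KO1 and -0.30 in KO3, and small subunit genes had 0.41, 0.40, -0.33 and -0.29 in the same hearts. The genes differed in how far they swung. The SD of log2 CPM over the 6 hearts was under 0.2 for 11 genes and over 0.5 for 7, Mrpl53, Mrps16, Mrpl41, Mrpl11, Mrpl20, Mrpl14 and Mrpl33.

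Among the large subunit genes, those around the peptidyl transferase centre and the factor-binding stalk are considered first. Mrpl3, whose protein lies near the peptidyl transferase centre, and which is mutated in an inherited cardiomyopathy, had 101, 93.3 and 115 CPM in wild type and 80.3, 118 and 78.2 in knockout. KO2 was the highest heart of all and KO1 and KO3 the lowest, so the groups overlapped (log2 fold change -0.16, SE 0.20). Mrpl4, a protein of the exit tunnel wall, had 89.5, 89.6 and 102 CPM in wild type and 75.01, 102 and 74.3 in knockout (log2 fold change -0.16, SE 0.17). Here too only KO2 reached the wild-type range.

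Mrpl11 and Mrpl12 form part of the stalk that receives translation factors, and Mrpl12 also binds the mitochondrial RNA polymerase. Mrpl12, whose NRF1 match is shown above, had 177, 148 and 253 CPM in wild type and 146, 253 and 137 in knockout. WT3 and KO2 had the same level to 3 digits, and the genotypes differed by far less than the hearts within each (log2 fold change -0.11, SE 0.30). Mrpl11 had 46.0, 40.3 and 75.1 CPM in wild type and 35.1, 75.8 and 35.9 in knockout, an SD of 0.51 log2 units over the hearts. Its estimate of -0.14 had an SE of 0.37.

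Of the other homologs of bacterial large subunit proteins, Mrpl30 had 154, 135 and 224 CPM in wild type and 120, 220 and 122 in knockout, again with WT3 and KO2 on top. Mrpl35 was steadier, with 37.3, 32.3 and 43.8 CPM in wild type and 32.3, 38.9 and 31.1 in knockout. Mrpl33 and Mrpl17 were the genes nearest to 0, with estimates of 0.00023 (SE 0.41) and 0.0030 (SE 0.28). Mrpl33 had 56.6, 41.5 and 95.4 CPM in wild type and 44.3, 101 and 48.1 in knockout, and Mrpl17 had 38.99, 34.2 and 56.3 and 34.8, 59.8 and 35.2. Mrpl19 had 33.1, 27.5 and 41.96 CPM in wild type and 28.5, 40.3 and 26.9 in knockout. In these genes the low and the high hearts of each genotype were close to those of the other.

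Among the mitochondria-specific large subunit proteins, WT3 and KO2 were again high. Mrpl42, the highest of the 78 in CPM, had 277, 236 and 389 CPM in wild type and 211, 406 and 222 in knockout (log2 fold change -0.11, SE 0.31). Mrpl45, which sits at the tunnel exit and anchors the ribosome to the inner membrane, had 66.5, 60.9 and 85.3 CPM in wild type and 59.8, 78.9 and 62.8 in knockout. Mrpl44, also mutated in an inherited cardiomyopathy, had 63.8, 57.6 and 79.5 and 52.7, 79.6 and 50.9 CPM. All of these had WT3 and KO2 as their highest hearts and estimates within 1 SE of 0 (Mrpl45 -0.08, SE 0.18, and Mrpl44 -0.13, SE 0.22).

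Mrpl58, a peptidyl-tRNA hydrolase that rescues stalled mitoribosomes, had 45.8, 37.5 and 70.5 CPM in wild type and 37.9, 66.4 and 39.3 in knockout. Mrps30 had 30.6, 28.5 and 33.4 and 25.1, 36.1 and 24.9 CPM. Mrps18a, the paralog of bacterial S18 that sits in the large subunit, had 60.9, 51.7 and 81.3 and 49.9, 84.0 and 44.98 CPM. The groups overlapped in all 3, and the estimates were -0.10 for Mrpl58, -0.10 for Mrps30 and -0.12 for Mrps18a. Mrpl53 stood out by size alone, with 1.71, 1.12 and 3.01 CPM in wild type and 1.59, 4.31 and 1.31 in knockout. Its estimate of 0.29 (SE 0.54) was -0.42 without KO2 and 0.75 without WT3.

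In the small subunit, Mrps2 and Mrps5 were the members whose knockout hearts all lay below the wild-type hearts. This is 2.56% of the 78, and 1.9% of all tested genes were separated in that direction (4.07% in either). Mrps2 encodes a homolog of a bacterial small subunit protein. It had 35.8, 33.5 and 32.9 CPM in wild type and 29.6, 32.2 and 26.0 in knockout, a log2 fold change of -0.22 (SE 0.13, 95% interval -0.53 to 0.10). It had the smallest p of the 78 genes (0.147 unadjusted by edgeR) and did not pass after adjustment.

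Mrps5, whose protein lines the messenger RNA entry channel, had 34.9, 34.0 and 34.3 CPM in wild type and 32.3, 33.8 and 32.6 in knockout. This was the steadiest of the 78 genes, with an SD of 0.04 log2 units over the hearts, so a log2 fold change of -0.06 (SE 0.12) was enough to separate the groups. Neither gene had its highest level in WT3 or KO2, and both had it in WT1.

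Mrps12, a core protein of the decoding centre, had 29.97, 28.0 and 35.7 CPM in wild type and 25.4, 38.5 and 27.3 in knockout (log2 fold change -0.04, SE 0.20). Mrps16 had 44.6, 35.5 and 74.2 and 34.9, 67.7 and 33.7 CPM, and Mrps21 had 83.6, 74.3 and 115 and 63.2, 119 and 64.9 CPM. Their estimates were -0.18 (SE 0.36) and -0.15 (SE 0.29). In all 3 genes WT3 and KO2 were the highest hearts and the groups overlapped. The other S18 paralogs differed in spread: Mrps18c had 30.2, 25.8 and 42.7 CPM in wild type and 23.9, 44.4 and 26.6 in knockout, while Mrps18b had 19.5, 17.0 and 21.3 and 18.7, 19.8 and 14.6.

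Of the mitochondria-specific small subunit genes, Mrps27, a pentatricopeptide repeat protein, had 51.9, 45.2 and 50.8 CPM in wild type and 38.7, 53.1 and 40.8 in knockout. Mrps25 had 36.9, 33.9 and 41.7 and 26.8, 41.6 and 30.5 CPM. KO1 and KO3 were below all wild-type hearts in both genes, and KO2 was not. Their log2 fold changes were -0.16 (SE 0.16) and -0.19 (SE 0.19). Mrps22, a further cardiomyopathy gene, had 24.7, 19.1 and 33.9 CPM in wild type and 19.6, 34.5 and 18.6 in knockout, Mrps23 had 173, 143 and 228 and 139, 224 and 126, and Mrps26 had 31.2, 30.8 and 40.0 and 26.1, 43.0 and 29.7. Their estimates lay between -0.15 and -0.05, each under 1 SE. Mrps36, the gene outside the ribosome, had 62.9, 52.2 and 88.4 CPM in wild type and 46.1, 88.0 and 52.2 in knockout, also with WT3 and KO2 as its highest hearts.

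Transcript length moved with this order of the hearts. Over all tested genes, those under 1 kb were high in WT3 and KO2, those of 2 to 4 kb were near 0 (-0.02 and -0.01) and those of 4 to 8 kb were low (-0.20 and -0.19). The mitoribosomal genes were high in both hearts at every length. The 25 members under 1 kb had medians of 0.48 and 0.51 in WT3 and KO2, the 28 of 1 to 2 kb had 0.33 and 0.40, the 16 of 2 to 4 kb had 0.41 and 0.34, and the 9 of 4 to 8 kb had 0.42 and 0.38. After removal of each heart's own length trend by an offset, the members' medians were 0.19 in WT3 and 0.20 in KO2, against -0.21 to 0.04 in the other hearts. The deviation thus became smaller and kept its sign in both hearts.

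**Figure D4:**
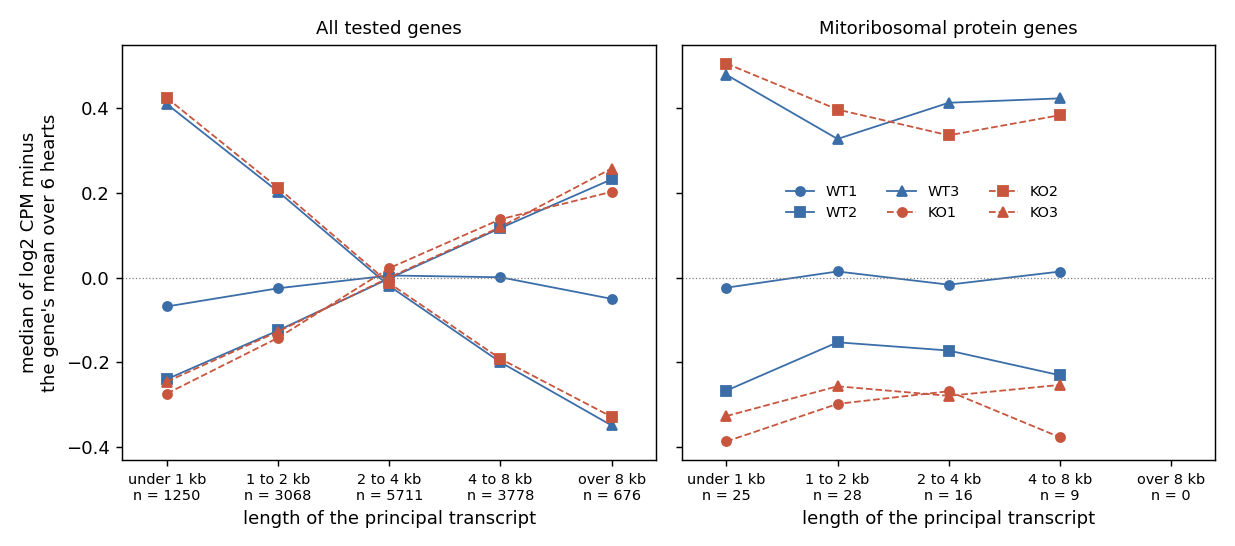
Median deviation (log2 CPM minus the gene's mean over 6 hearts) by length of the principal transcript, for all tested genes (left) and for the 78 members (right), 1 line per heart. Over all genes the lines of WT3 and KO2 fall from 0.41 and 0.42 under 1 kb to -0.35 and -0.33 over 8 kb, whereas those of the members stay between 0.33 and 0.51.

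WT3 and KO2 were also the highest hearts by the median in other gene groups. The 84 tested genes of cytosolic ribosomal proteins had medians of -0.14, -0.40 and 0.63 in WT1, WT2 and WT3 and -0.32, 0.56 and -0.30 in KO1, KO2 and KO3. The 37 nuclear genes of respiratory complex I had -0.06, -0.23 and 0.50, then -0.37, 0.50 and -0.31. Their median log2 fold changes were -0.06 and -0.10, beside -0.11 for the mitoribosomal genes. By single hearts, the cytosolic genes differed from the other groups: WT3 was the highest for 75 of the 84 and WT2 the lowest for 61. KO2 was the highest for 44 of the 78 mitoribosomal genes and KO1 the lowest for 47. Complex I genes had the same order, with KO2 the highest for 26 of 37 and KO1 the lowest for 35. None of these groups held a called gene.

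Other cell types also differed among the hearts. The 8 fibroblast markers summed to 555, 758 and 503 CPM in WT1, WT2 and WT3 and to 1241, 419 and 875 in KO1, KO2 and KO3, so the hearts with the highest mitoribosomal levels had the lowest fibroblast levels. The 7 epicardial markers summed to 13.5, 8.23 and 7.10 CPM in wild type and 37.0, 5.72 and 20.4 in knockout. The 6 endothelial markers were also lowest in WT3 and KO2 (305 and 299 CPM, against 407 to 628). Red cell markers summed to 525, 674 and 759 CPM in wild type and 765, 800 and 453 in knockout. Smooth muscle and pericyte markers summed to 658, 556 and 811 and 736, 695 and 635. Leukocyte markers summed to 206, 219 and 259 and 314, 186 and 172. None of these last groups was lowest in both WT3 and KO2. The 5 adipocyte markers were too low to test, and atrial Sln was at or near 0. Cardiomyocyte markers did not all move alike: Myh6 had 17169, 26859 and 10042 CPM in wild type and 22900, 9167 and 29523 in knockout, and Myl2 had 7438, 6088 and 11698 and 5054, 11846 and 6751. The part of these other cell types in the mitoribosomal values was not tested.

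Leaving out single hearts moved the result in both directions. Without WT3 the median log2 fold change of the 78 genes was 0.08 and 14 were below 0, and without KO2 it was -0.41 and all 78 were below 0, where 49% of all genes were. In the latter fit 7 of the 78 had an unadjusted p under 0.05, where 7.6% of all genes did. Without KO1 the median was 0.03 with 32 below 0, and without KO3 it was -0.0023 with 42 below 0. Without WT1 it was -0.15 and without WT2 -0.24, each with 77 below 0. The direction of the group therefore depended on which hearts were included.

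With WT3 and KO2 both left out, WT1 and WT2 were compared with KO1 and KO3. The median log2 fold change was then -0.22, and 77 of the 78 genes were below 0 (50.3% of all genes), the exception being Mrpl53. The same fit had 36 of 37 nuclear complex I genes below 0 (median -0.22) and 24 of 25 mitoribosome assembly factors (median -0.18). For cytosolic ribosomal protein genes it had 64 of 84 below 0 (median -0.06). An unadjusted p under 0.05 was reached by 12 of the 78 genes (15.4%), against 6.71% of the 14610 genes tested in that fit: Mrps2, Mrps27, Mrps25, Mrpl4, Mrpl3, Mrpl15, Mrpl57, Mrps7, Mrpl50, Mrps21, Mrpl13 and Mrpl11. In 54 of the 78, both knockout hearts were below both wild-type hearts, against 18.5% of all genes. None of the 78 passed the threshold (0.0137% of all genes did), and the smallest adjusted p by edgeR was 0.704. The fibroblast markers of the remaining hearts were 555 and 758 CPM in wild type and 1241 and 875 in knockout, and their part in these values was not tested. The length offset on the same 4 hearts gave a median of -0.18 with 75 genes below 0.

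**Figure D5:**
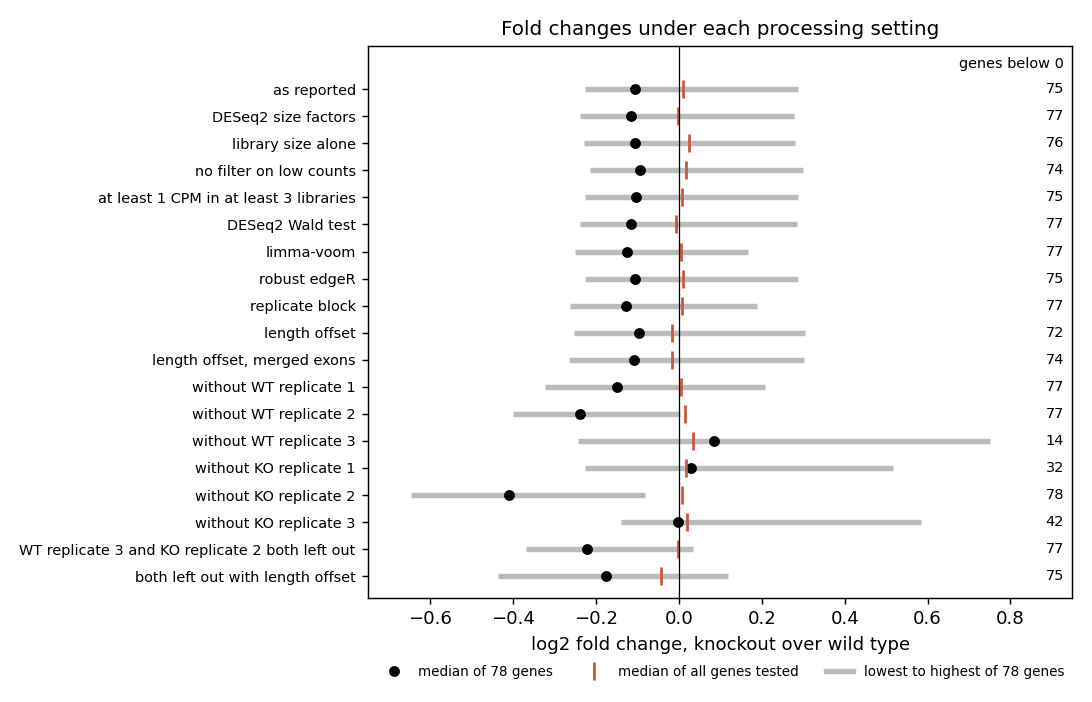
Median log2 fold change of the 78 genes (black points) with their lowest and highest value (grey bars) and the median of all tested genes (red marks), knockout over wild type, under each setting; the numbers at the right count members below 0. The settings that keep all 6 hearts lie between -0.13 and -0.09, and those that leave out a heart run from -0.41 to 0.08.

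The other genes of mitochondrial translation were read from the same fit, and none was called. The 5 mitoribosomal proteins with other names all had estimates below 0, with a median of -0.14. Ptcd3 had 148, 140 and 173 CPM in wild type and 115, 171 and 113 in knockout, and Dap3, known also from apoptosis, had 98.98, 95.5 and 109 and 78.02, 107 and 85.9. In both, KO1 and KO3 were below every wild-type heart and KO2 was not. Of 25 assembly factors, which process the ribosomal RNA and join the subunits, 24 were below 0 (median -0.11). Mettl15 (-0.26, SE 0.22) and Ddx28 (-0.15, SE 0.15) had the smallest p.

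Translation factors were below 0 in 14 of 15 cases with a median of -0.09, led by Taco1 (-0.18, SE 0.14), an activator of cytochrome oxidase translation, and Mtif2 (-0.19, SE 0.18), the initiation factor. As a median, the 15 translation factors deviated by 0.18 in WT3 and 0.10 in KO2, above 0 as the ribosomal genes did. Some of the factors ran against the ribosomal genes from heart to heart. Lrpprc, which stabilises mitochondrial messenger RNAs, had 171, 212 and 102 CPM in wild type and 187, 105 and 224 in knockout, and the elongation factor Tufm had 212, 233 and 171 and 195, 171 and 192. WT3 and KO2 were the lowest hearts for both. These genes were singled out after their values were seen.

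Aminoacyl-tRNA synthetases of mitochondria, with the amidotransferase subunits, were below 0 in 17 of 20 cases (median -0.07), led by Mars2 (-0.26, SE 0.14) and Qrsl1 (-0.18, SE 0.12). Of 19 genes listed under mitochondrial transcription and RNA processing 15 were below 0 (median -0.08). They were led by Mterf2 (-0.33, SE 0.25) and by Polg2 (-0.22, SE 0.18), which encodes a subunit of the mitochondrial DNA polymerase. Among the 11 factors that drive such genes, 5 were below 0 and the median was 0.03. Yy1, with 34.7, 35.1 and 34.2 CPM in wild type and 38.5, 37.5 and 37.97 in knockout, had all knockout hearts above the wild-type hearts (0.13, SE 0.12, 1 of 11 genes, against 2.18% of all tested genes). In the other direction, 3 of the 20 synthetase genes (Ears2, Pars2 and Qrsl1) and 1 of the 25 assembly factors (Mettl17) had all knockout hearts below the wild-type hearts, as had 1.9% of all tested genes. Ears2, Pars2 and Mettl17 are named after their values were seen. Pprc1 had 0.22 (SE 0.24). Members with an NRF1, ETS or YY1 match in their promoter had median fold changes of -0.08, -0.09 and -0.10, and the 26 members with none of these had -0.11. Their median deviations in WT3 and KO2 were 0.42 and 0.49 with NRF1, 0.44 and 0.46 with ETS, 0.41 and 0.45 with YY1, and 0.41 and 0.44 with none, so members without a match were high in the same hearts.

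The messenger RNAs that the mitoribosome translates had a median estimate close to 0. Of the 13 messenger RNAs of the mitochondrial genome, 5 had estimates below 0 and the median was 0.01. The estimates ran from -0.27 to 0.08. Summed, they had 216394, 249250 and 278951 CPM in wild type and 243906, 298877 and 205539 in knockout, so WT3 and KO2 were again the highest hearts. Their median deviations were also highest there (0.19 and 0.25), but not after removal of each heart's own length trend. The medians were then -0.13, 0.21 and -0.12 in WT1, WT2 and WT3 and 0.14, -0.04 and -0.09 in KO1, KO2 and KO3. The messenger RNA with the highest level, mt-Co1, had 86245, 99425 and 114578 CPM in wild type and 96308, 124855 and 79518 in knockout. The mitochondrial ribosomal RNAs were not analysed here.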

How the data were processed

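Whole-number read counts per gene were deposited by the authors, not normalized. The submitters' processing notes list GRCm38.p6 as the build and DESeq2, featureCounts, STAR and Subread 1.5.2 as tools, with no role for any of them. Annotation release and strand setting: not given in the sources used here. Symbols, exons and lengths came from GENCODE M21 on GRCm38, which matched 49056 of 49315 identifiers.

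From the counts, genes were kept with edgeR's filterByExpr (minimum count 10, minimum total 15), scaled by TMM and tested with edgeR 4.0.16 (quasi-likelihood, R 4.3.3) on all 14508 genes, with Benjamini-Hochberg adjustment and a threshold of 0.05. SEs were derived from the fit's fold changes, p-values and degrees of freedom, and the 95% intervals from those SEs. CPM are counts over TMM-scaled totals. The test was tried on simulated data first. Reads carry no molecular identifiers. DESeq2 1.42.0, limma 3.58.1 (voom), other scalings and filters, a length offset (a spline on log length) and left-out hearts were alternatives.

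The members and lists were chosen with earlier results of these data known. Genes named with full values were those with the smallest p in each direction, the highest and lowest FPKM, non-overlapping groups and a set chosen by role.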

Additional observations from a re-analysis of the deposited data

How the results depend on the processing

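None of the 78 genes passed the threshold under any of the 18 alternatives. With all 6 hearts kept, 72 to 77 genes had values below 0 and the median stayed between -0.12 and -0.09 under scaling by library size alone or by size factors, no filter or a filter of 1 CPM in 3 libraries, DESeq2, limma-voom, robust edgeR and the length offsets. Leaving out 1 heart at a time gave medians from -0.41 to 0.08, from 14 to 78 genes below 0, from 0 to 7 at an unadjusted p under 0.05, and from 0 to 1 called genes overall (Arrdc4 lost its call without KO3). With WT3 and KO2 both left out, 2 genes were called overall and 12 members had an unadjusted p under 0.05; with the length offset added, 2 and 11. The merged-exon length offset and both fits without WT3 and KO2, with and without the length offset, were chosen after seeing the data.

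The replicate numbers do not pair the hearts: same-numbered hearts correlated at 0.18, -0.65 and -0.40. With the number as a replicate block, the median of the 78 genes was -0.13, 77 were below 0 and 0 genes were called overall.

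The limits are 3 hearts a group, a biological coefficient of variation of 24.2%, and a spread between hearts that exceeds the estimates. Mrpl53, at 1.12 to 4.31 CPM, had the fewest counts of the 78 genes.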
